A study of Arabidopsis thaliana with 4 samples.

Results

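The phosphate starvation response and phosphate uptake genes are described here as 37 loci of the 28642 in the deposited gene table of *Arabidopsis thaliana* roots. They were taken by locus identifier from a list made with earlier results of these data known, and fall into 9 classes by their known role: 7 PHT1 transporters, 4 SPX proteins, the transcription factors *PHR1* and *PHL1*, 2 target mimic RNAs, *PHO2* with *PHO1* and *PHO1;H1*, 4 purple acid phosphatases, 3 other scavenging enzymes, 8 lipid remodelling enzymes and 4 genes of the root tip response. The study compared polyA RNA from whole roots of the WT, accession Ws, with *atx1setm*, and sequenced 2 libraries of each genotype. ATX1 is a histone methyltransferase that places trimethylation on lysine 4 of histone H3, and *atx1setm* is a single line, also in Ws, that carries an *ATX1* transgene with an inactive SET domain over the *atx1-1* null allele. The labels give an age of 10 days post germination and the study's methods an age near that, and part of the mutant seedlings had no emerged lateral root. No phosphate treatment is named for either genotype. The labels name LS growth medium and the methods a diluted MS medium, so the phosphate supply of these seedlings is not settled.

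Plants take up inorganic phosphate through PHT1 transporters in the outer root cells and load it into the xylem through PHO1. When phosphate is scarce, the transcription factor PHR1 binds a short promoter motif called P1BS and switches on transporters, phosphatases, enzymes that replace phospholipids with sulfolipids and galactolipids, the SPX genes that hold PHR1 in check, and the microRNA miR399. miR399 removes the transcript of *PHO2*, an enzyme that marks transporters for degradation, and the noncoding RNAs IPS1 and AT4 bind miR399 without being cut and so blunt it. A separate local response at the root tip runs through the ferroxidases LPR1 and LPR2, the P5-type ATPase PDR2 and the malate channel ALMT1.

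The sites through which IPS1 and AT4 meet miR399 are shown first, because both RNAs were among the members with an unadjusted p under 0.05. Sequences and coordinates are from the RefSeq reference genome TAIR10.1, written 5′ to 3′. They were not read from the Ws plants that were sequenced, whose bases can differ from the reference. In the mature miRNAs the capitals mark the seed, bases 2 to 8, which all 6 miR399 loci share. In the mimic sites they mark the 3 bases that bulge out opposite the miRNA after its base 10.
MIR399a, chr1:10227165-10227185, plus strand: tGCCAAAGgagatttgccctg
MIR399b, chr1:23345387-23345407, minus strand: tGCCAAAGgagagttgccctg
IPS1 site, chr3:3051224-3051247, plus strand: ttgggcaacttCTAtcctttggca
AT4 site, chr5:895149-895172, plus strand: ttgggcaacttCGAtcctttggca
PHO2 site, chr2:14281884-14281904, minus strand: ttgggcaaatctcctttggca
The sites of IPS1 and AT4 differed at 0 bases outside the bulge and each paired with MIR399b with 3 mismatches, with G:U pairs counted as mismatches. *PHO2* held 5 sites without a bulge, each with 2 mismatches to its closest miR399, of which the one shown was the third by position. No miR399 locus had more than 1 read in any library, so the precursor level was not measurable at this depth in polyA libraries.

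Each library held between 38574293 and 46439122 exon reads, of which the members took 0.187% and 0.202% in Ws and 0.244% and 0.239% in *atx1setm*. *ATX1* itself stood at 14.8 and 9.95 CPM (counts scaled to library size and by TMM) in Ws and at 10.2 and 7.01 CPM in *atx1setm*, where transgene transcripts map to the same locus, and the genotypes overlapped. Its intron reads numbered 44 and 43 in *atx1setm* against 0 and 2 in Ws. Library *atx1setm* replicate 2 had the lowest TMM factor, 0.855 against 1.01 to 1.09 in the others. A lower factor raises every CPM value of its library. The summed level of 7 green shoot markers was also highest there, at 309 CPM, against 89.2 CPM in *atx1setm* replicate 1 and 149 and 255 CPM in Ws. The 8 root hair markers summed to 995 and 1054 CPM in Ws and to 245 and 283 CPM in *atx1setm*. By the exact test of edgeR 6 of the 8 fell at an adjusted p under 0.05, where 2.24% of all genes did. The study itself reported *COBL9*, *LRX1*, *PRP3* and *PRP1* of this list as lower, so their fall was known beforehand. In whole roots, fewer cells of a type and less RNA per cell cannot be told apart.

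Of the 37 members, 36 had enough reads to be tested among 20714 genes. The phospholipase gene *NPC5* was left out, since it had 0 and 2 reads in the WT libraries and 2 and 0 in those of the mutant. At an adjusted p under 0.05 over all genes, the quasi-likelihood test of edgeR called 0 members and 0% of all genes in each direction, with a smallest adjusted p of 0.0837 over all genes. At an unadjusted p under 0.05 by that test 6 members were higher in *atx1setm* (*SPX1*, *SPX3*, *IPS1*, *AT4*, *PPsPase1* and *GDPD1*), where 4.93% of all genes were higher. In the other direction *ALMT1* alone was lower, where 4.78% of all genes were lower. The exact test of edgeR, which is nearer to the gene-level test that the study used, called 2 members higher at an adjusted p under 0.05, *IPS1* and *PPsPase1*, against a background of 1.71% of all genes. It called *ALMT1* lower, against a background of 2.24%. DESeq2 called the same 3 members, with backgrounds of 1.46% higher and 1.75% lower. The study had already reported these 3 genes as differentially expressed, in the same directions and from the same libraries. The calls therefore repeat its result and are not independent of it.

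Both *atx1setm* libraries lay above both Ws libraries for 18 of the 36 members tested, against 19.6% of all genes, and below them for 8, against 20% of all genes. Differences are given as a log2 ratio, *atx1setm* over Ws. After ± stands a standard error (SE) of the fit, derived from its F statistic. The median log2 ratio of the members was 0.38, against −0.01 over all genes tested. It was positive for 23 members, where 49.1% of all genes were positive, and negative for 13, where 50.9% of all genes were negative. The classes did not share one direction, as the plot of log2 ratios by class shows.

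**Figure D1:**
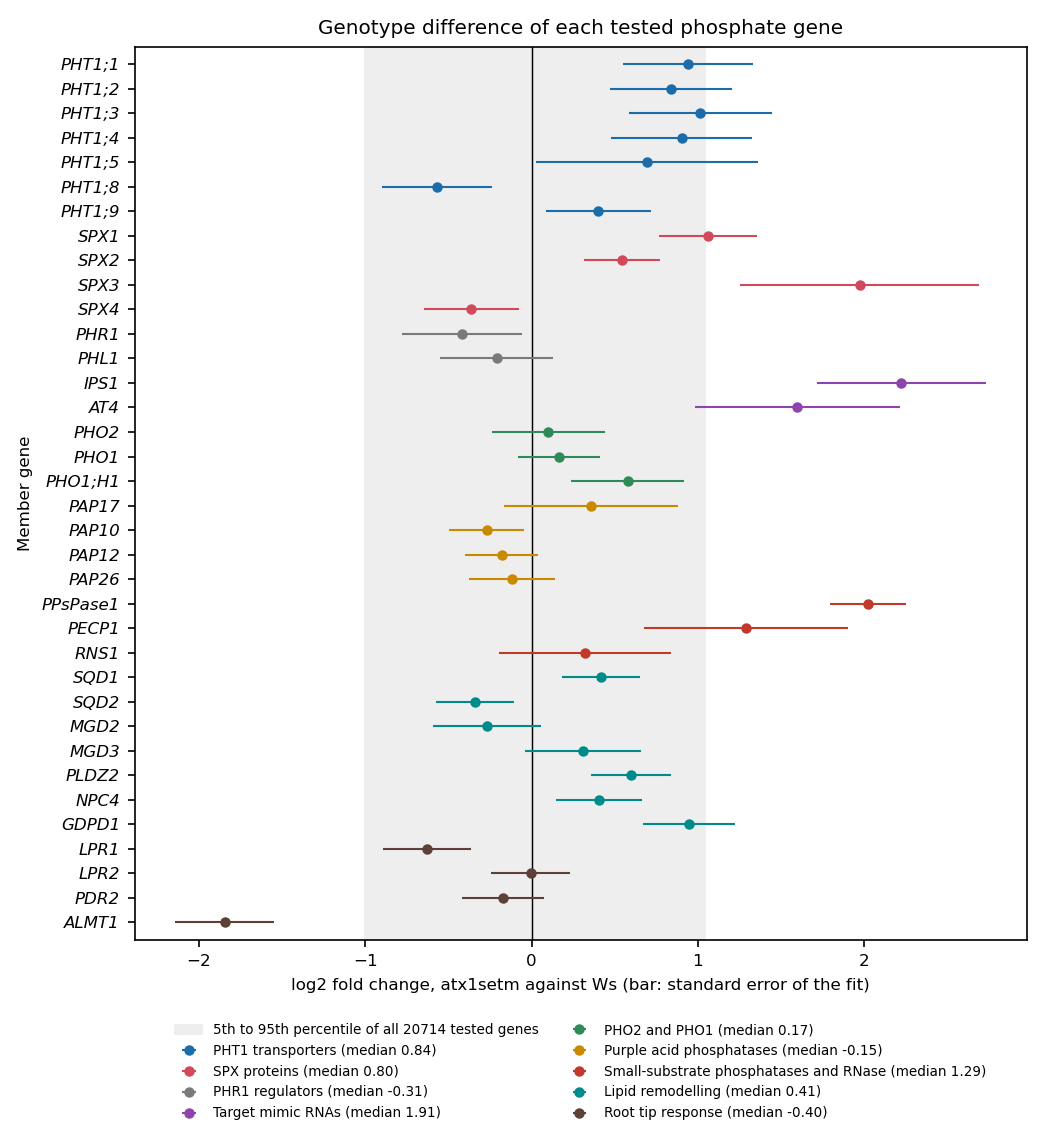
Log2 ratio of each tested member, *atx1setm* over Ws, with the SE of the fit as a bar and colours for the 9 classes. The grey band spans the 5th to 95th percentile of all 20714 tested genes. *IPS1*, *PPsPase1*, *SPX3*, *AT4*, *PECP1* and *SPX1* lie to the right of the band and *ALMT1* alone to its left.

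The PHT1 transporters carry phosphate with protons across the plasma membrane. Read per exon length, *PHT1;1* was the most abundant of them in the WT, at 134 ± 21.3 RPKM (reads scaled by exon length and by the mapped reads, with the SD of n = 2 libraries), and *PHT1;2*, *PHT1;3* and *PHT1;4* followed at 58.5 ± 9.16, 24.7 ± 4.79 and 27.6 ± 8.21 RPKM. Within each Ws library *PHT1;4* was above *PHT1;3*, at 21.8 against 21.3 RPKM and 33.4 against 28.1 RPKM. That difference was not tested. *PHT1;5*, a transporter known for moving phosphate between organs, *PHT1;8* and *PHT1;9* lay between 0.535 and 2.19 RPKM in Ws.

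*PHT1;1* to *PHT1;4* were 1.79-fold to 2.02-fold higher in *atx1setm*. None of them passed the quasi-likelihood test on the 4 libraries with its main settings, even before adjustment. Before adjustment *PHT1;1* and *PHT1;2* passed on library totals, and *PHT1;1* and *PHT1;3* without a filter on low counts. By the exact test the unadjusted p was 0.0278, 0.0456, 0.0363 and 0.0576 for *PHT1;1* to *PHT1;4*, and none passed after adjustment. All 4 passed before adjustment with DESeq2, and *PHT1;1* to *PHT1;3* with both limma fits described below. The share of all genes at that level is not given for these tests. *PHT1;1* to *PHT1;4* passed with a replicate block, given further below with the share of all genes. *PHT1;1* (AT5G43350, chromosome 5 from 17399789 to 17401949 of TAIR10) measured 202 and 266 CPM in Ws replicates 1 and 2 and 318 and 580.0 CPM in *atx1setm* replicates 1 and 2. The genotypes did not overlap, and *atx1setm* replicate 2 was the highest by a wide margin. The log2 ratio was 0.94 ± 0.39, with an adjusted p of 0.544 by the quasi-likelihood test of edgeR and 0.321 by the exact test. *PHT1;3* (AT5G43360), its neighbour on chromosome 5, measured 31.8 and 44.0 CPM in Ws and 49.1 and 104 CPM in *atx1setm*, and its log2 ratio was 1.02 ± 0.43. *PHT1;2* and *PHT1;4* showed the same order of the 4 libraries, with log2 ratios of 0.84 ± 0.37 and 0.90 ± 0.42.

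The size of these differences depended on *atx1setm* replicate 2. Without it the log2 ratios of *PHT1;1* to *PHT1;4* were between 0.37 and 0.46, and the median of the 7 transporters was 0.37 in place of 0.84. Without *atx1setm* replicate 1 the median was 1.21 and all 4 had an adjusted p under 0.05 in the quasi-likelihood test, where 10.2% of all genes were called higher. The green shoot markers were also highest in *atx1setm* replicate 2, and root hair markers were lower in both *atx1setm* libraries, as given above, and their part in the PHT1 values was not tested. *PHT1;8* ran the other way, from 2.68 and 1.95 CPM in *atx1setm* to 3.31 and 3.57 CPM in Ws, or −0.57 ± 0.33. *PHT1;9* was at 0.40 ± 0.32, and *PHT1;5* overlapped between genotypes at 0.527 to 2.10 CPM.

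*PHT1;1* and *PHT1;2* are near-identical copies, and their separate values are uncertain for that reason. Of the 50-base stretches in their exons, read from the reference genome, 42.5% of those of *PHT1;1* and 45.6% of those of *PHT1;2* are not unique. These stretches recur in each other or in *PHT1;3*. The deposited counts hold only uniquely mapped reads, so both levels are understated. In 33 members every stretch was unique, and in *PHT1;3* and *PHL1* 1.36% and 2.82% were not.

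**Figure D2:**
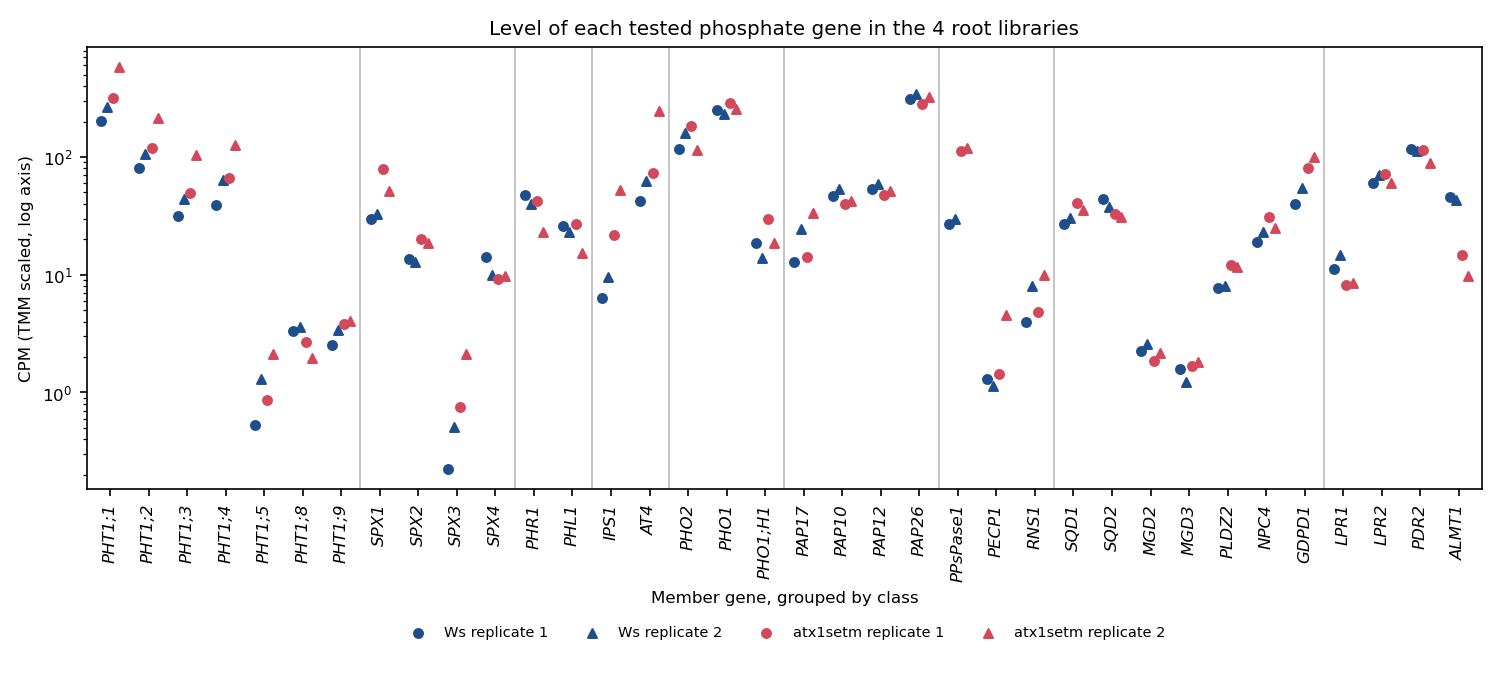
Level of the 36 tested members in each library, in CPM on a log axis, with genes grouped by class between the grey lines. Circles are replicate 1 and triangles replicate 2, blue for Ws and red for *atx1setm*. The 4 libraries of *PPsPase1* fall into 2 tight pairs, near 30 CPM in Ws and above 110 CPM in *atx1setm*, whereas *PHT1;1* and *AT4* are spread by the high *atx1setm* replicate 2.

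SPX proteins bind inositol pyrophosphates when phosphate is ample and then keep PHR1 off its target promoters. *SPX1* (AT5G20150), whose product acts in the nucleus, measured 29.9 and 32.8 CPM in Ws and 79.1 and 51.6 CPM in *atx1setm*. Both mutant libraries were above both WT libraries, this time with replicate 1 the higher. The log2 ratio was 1.06 ± 0.30, with an adjusted p of 0.333 by the quasi-likelihood test of edgeR and 0.102 by the exact test. Before adjustment it passed the former, and no longer did so when either Ws replicate 1 or Ws replicate 2 was left out.

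*SPX3* (AT2G45130), another inhibitor of PHR1, was close to the floor of detection. Its exon reads were 11 and 20 in the WT libraries and 35 and 82 in the mutant libraries, or 0.223 and 0.513 CPM against 0.750 and 2.13 CPM. The genotypes did not overlap, and the log2 ratio of 1.97 ± 0.72, with an adjusted p of 0.478 by the quasi-likelihood test of edgeR, carried the widest error of all members. It was 1.07 without *atx1setm* replicate 2, and it did not pass before adjustment without that library or without Ws replicate 1. *SPX2*, which is partly redundant with *SPX1*, was at 0.54 ± 0.23. *SPX4* stood apart from the other SPX genes with −0.36 ± 0.29, so that 3 of 4 SPX genes were higher in both *atx1setm* libraries and 1 was lower, where 19.6% and 20% of all genes were.

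The regulators above them did not differ between genotypes beyond their spread. *PHR1* ranged from 23.0 to 47.4 CPM and its close homolog *PHL1* from 15.3 to 27.0 CPM, with *atx1setm* replicate 2 the lowest library for both genes. Their log2 ratios were −0.42 ± 0.36 and −0.21 ± 0.34. Without *atx1setm* replicate 2 the median of the pair was 0.07 in place of −0.31, and without *atx1setm* replicate 1 it was −0.80 and *PHR1* had an adjusted p of 0.0409 in the quasi-likelihood test of edgeR, where 11.5% of all genes were called lower.

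Both target mimic RNAs whose sites are printed above were higher in *atx1setm*. *IPS1* (AT3G09922, chromosome 3 from 3050989 to 3051530) measured 6.37 and 9.54 CPM in Ws and 21.8 and 52.6 CPM in *atx1setm*. The lower mutant library was still above both WT libraries, and the 2 mutant libraries differed from each other more than the WT libraries did. This was a log2 ratio of 2.23 ± 0.51, or 4.68-fold, with an adjusted p of 0.248 by the quasi-likelihood test of edgeR and 0.00384 by the exact test. Without *atx1setm* replicate 2 the log2 ratio was 1.47, and without *atx1setm* replicate 1 it was 2.73. The exact test's adjusted p was 0.285 without Ws replicate 1 and at most 0.0433 without any other library.

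*AT4* (AT5G03545, chromosome 5 from 894706 to 895400) measured 42.6 and 62.3 CPM in Ws and 72.9 and 245 CPM in *atx1setm*. No library of one genotype overlapped the other, but most of the difference lay in *atx1setm* replicate 2. The log2 ratio of 1.60 ± 0.62, with an adjusted p of 0.507 by the quasi-likelihood test of edgeR and 0.192 by the exact test, was 0.49 and passed neither test when that library was left out. Per exon length *AT4* was the more abundant RNA in Ws, at 77.0 ± 17.9 RPKM against 15.0 ± 3.73 RPKM for *IPS1* (SD, n = 2). The median log2 ratio of the pair was 1.91, the highest of the 9 classes, and 0.98 without *atx1setm* replicate 2.

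*PHO2*, the target of miR399 and the gene for a ubiquitin-conjugating enzyme, was at 116 and 160 CPM in Ws and 182 and 114 CPM in *atx1setm*. The genotypes overlapped fully, with a log2 ratio of 0.10 ± 0.34. *PHO1*, which exports phosphate into the xylem, was among the most abundant members at 91.1 ± 8.29 RPKM in Ws and 96.3 ± 23.6 RPKM in *atx1setm* (SD, n = 2), and its log2 ratio was 0.17 ± 0.25. For its homolog *PHO1;H1* the value was 0.58 ± 0.34, with overlapping libraries. The median of these 3 genes was 0.17, and 0.42 without *atx1setm* replicate 2.

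Of the 4 purple acid phosphatases, which release phosphate from organic esters, 0 passed either test of edgeR. *PAP26*, the main vacuolar and secreted form, had the highest RPKM of the members in the WT at 165 ± 4.94 (SD, n = 2), with the value of *PHT1;1* understated as described, and a log2 ratio of −0.12 ± 0.26. *PAP10*, held at the root surface, and *PAP12*, which is secreted, were slightly lower in both *atx1setm* libraries at −0.27 ± 0.23 and −0.18 ± 0.22. *PAP17* differed more between replicates than between genotypes, at 12.9 and 24.3 CPM in Ws and 14.3 and 33.4 CPM in *atx1setm*.

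*PPsPase1* (AT1G73010, chromosome 1 from 27464572 to 27466256), which encodes a phosphatase that acts on pyrophosphate, had the smallest p of the members in both tests of edgeR. It measured 27.2 and 30.0 CPM in Ws and 113 and 119.9 CPM in *atx1setm*. The replicates of each genotype lay close together and the genotypes far apart. The log2 ratio was 2.03 ± 0.23, or 4.07-fold, with an adjusted p of 0.0902 by the quasi-likelihood test of edgeR and 8.118e-08 by the exact test. It ranged from 1.90 to 2.11 over 16 alternative settings. The exact test's adjusted p was 0.157 without Ws replicate 1 and 0.0878 without Ws replicate 2, where 1 WT library remains, and at most 7.747e-07 without either mutant library. Its intron reads numbered 2 and 7 in Ws and 22 and 11 in *atx1setm* (adjusted p = 0.441 by the exact test of edgeR over 6353 genes), and 0 of the 12 members with enough intron reads passed an adjusted p of 0.05.

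*PECP1* (AT1G17710), a phosphatase for phosphocholine and phosphoethanolamine, measured 1.30 and 1.13 CPM in Ws and 1.44 and 4.52 CPM in *atx1setm*. Only *atx1setm* replicate 2 stood apart, and the log2 ratio of 1.29 ± 0.61 was 0.26 without it. *RNS1*, a secreted ribonuclease, overlapped between genotypes at 3.98 to 10.0 CPM. The class median of 1.29 is that of *PECP1* and was 0.26 without *atx1setm* replicate 2.

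**Figure D3:**
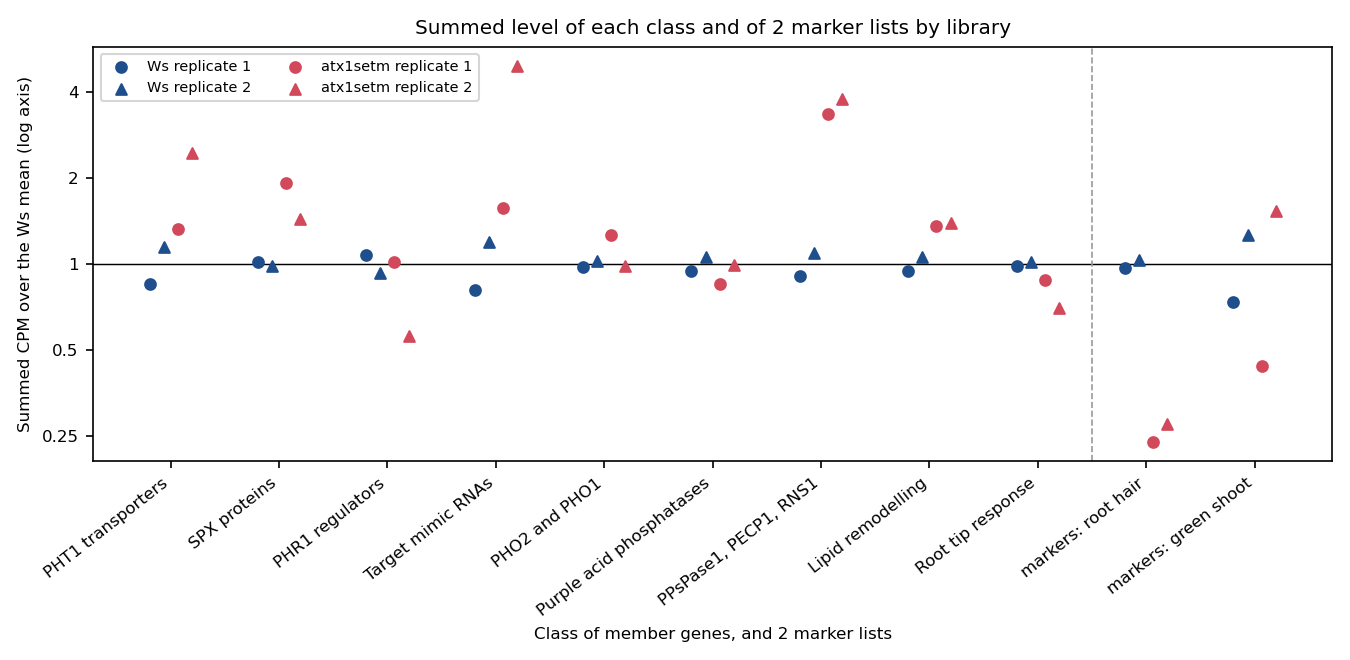
Summed CPM of each class in each library, divided by the mean of the 2 Ws libraries, on a log axis, with 2 marker lists right of the dashed line. Circles are replicate 1 and triangles replicate 2, blue for Ws and red for *atx1setm*. The PHT1 sum was 360 and 487 CPM in Ws and 559 and 1033 CPM in *atx1setm*, the mimic RNA sum 48.9 and 71.9 against 94.7 and 297 CPM, and the root hair marker sum was low in both *atx1setm* libraries.

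Lipid remodelling frees phosphate from membranes in 2 stages, the breakdown of phospholipids and the synthesis of lipids without phosphorus. In the breakdown group *GDPD1* (AT3G02040, chromosome 3 from 348167 to 350010), a glycerophosphodiester phosphodiesterase that splits the head groups left by lipid breakdown, measured 39.7 and 54.7 CPM in Ws and 81.4 and 100.4 CPM in *atx1setm*. Both mutant libraries were above both WT libraries. The log2 ratio was 0.95 ± 0.28, with an adjusted p of 0.358 by the quasi-likelihood test of edgeR and 0.140 by the exact test, and without Ws replicate 1 or Ws replicate 2 it did not pass before adjustment either. The phospholipase genes *PLDZ2* and *NPC4* had log2 ratios of 0.60 ± 0.24 and 0.41 ± 0.26.

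The synthesis group was mixed. *SQD1*, which makes the sulfoquinovose head group, was higher in both *atx1setm* libraries at a log2 ratio of 0.42 ± 0.23. *SQD2*, which attaches that head group to the lipid, was lower in both at −0.34 ± 0.23. The galactolipid synthase genes *MGD2* and *MGD3* were at 2.59 CPM or below in every library, with log2 ratios of −0.27 ± 0.32 and 0.31 ± 0.35. Over the 7 lipid genes tested, 5 were higher and 2 lower in both *atx1setm* libraries, where 19.6% and 20% of all genes were, with a median of 0.41. Only *GDPD1* among them passed before adjustment.

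The root tip genes had the lowest class median, −0.40. *ALMT1* (AT1G08430, chromosome 1 from 2658716 to 2661029), whose malate efflux acts with iron to stop root growth on low phosphate, measured 45.3 and 43.2 CPM in Ws and 14.8 and 9.82 CPM in *atx1setm*. The WT libraries were close together and both mutant libraries far below them. The log2 ratio was −1.85 ± 0.30, or 3.59-fold lower, with an adjusted p of 0.140 by the quasi-likelihood test of edgeR and 1.836e-04 by the exact test. Without Ws replicate 1 or Ws replicate 2 the exact test's adjusted p was 0.158 or 0.101, and the log2 ratio lay between −2.17 and −1.56 when any 1 library was left out.

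*LPR1*, the ferroxidase of the same pathway, measured 11.2 and 14.6 CPM in Ws and 8.19 and 8.52 CPM in *atx1setm*, and its log2 ratio of −0.63 ± 0.26 passed neither test of edgeR. Its homolog *LPR2* was at −0.00 ± 0.24, and *PDR2* at −0.17 ± 0.25. The root tip meristem markers moved in different directions, with log2 ratios of −0.80 for *PLT1*, −0.70 for *PLT2* and 1.46 for *WOX5*. After adjustment *WOX5* alone passed the exact test. Before adjustment the quasi-likelihood test put 1 of these 3 markers higher and 1 lower, where 4.93% and 4.78% of all genes were. They summed to 23.6 and 28.3 CPM in Ws and 19.6 and 18.6 CPM in *atx1setm*. The 3 root cap markers summed to 25.6 and 23.2 CPM in Ws and 26.1 and 34.7 CPM in *atx1setm*. The part of root tip or root cap tissue in the *ALMT1* value was not tested.

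The P1BS motif, searched as GNATATNC, reads the same on both strands. Within the 300 bases before the gene start given in the table, it was found for 16 of the 37 members, or 43.2%, against 6.04% of the tested genes with such a window. The 6 members *SPX1*, *SPX2*, *SPX3*, *SQD2*, *MGD2* and *GDPD1* held 2 matches, where 0.276% of tested genes held 2 or more. The windows of *SPX3* and *GDPD1* are shown as examples, and the capitals mark the matches. Both genes held 2 matches and were higher in *atx1setm* at an unadjusted p under 0.05. *SPX1* met the same conditions and its window is not shown.
SPX3, chr2:18606110-18606409, plus strand: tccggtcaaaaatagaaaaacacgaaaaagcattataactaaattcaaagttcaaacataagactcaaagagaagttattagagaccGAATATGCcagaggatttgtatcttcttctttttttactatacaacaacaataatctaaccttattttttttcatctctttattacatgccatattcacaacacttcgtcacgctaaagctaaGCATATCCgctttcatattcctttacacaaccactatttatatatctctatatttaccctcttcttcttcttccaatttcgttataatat
GDPD1, chr3:350011-350310, minus strand: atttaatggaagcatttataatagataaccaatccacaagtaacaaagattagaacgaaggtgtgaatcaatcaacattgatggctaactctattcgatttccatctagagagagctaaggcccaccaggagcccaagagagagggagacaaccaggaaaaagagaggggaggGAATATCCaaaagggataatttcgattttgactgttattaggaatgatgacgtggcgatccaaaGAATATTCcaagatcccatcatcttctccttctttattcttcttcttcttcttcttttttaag
A match is a run of letters in the reference genome, not a measured binding site and not a sequence read from Ws. The members with a match had a median log2 ratio of 0.56 (16 tested) and those without one 0.13 (20 tested), while all 1247 tested genes with a match had a median of −0.00. The difference between the members with and without a match was not tested. No match lay in the windows of *IPS1*, *PPsPase1* and *ALMT1*, the 3 members that passed the exact test, and *SQD2* and *MGD2* had 2 matches and negative log2 ratios. Higher at an unadjusted quasi-likelihood p under 0.05 were 4 of the 16 members with a match and 2 of the 20 without one. The share was 4.97% over all tested genes with a match. Of the 57 tested genes with 2 or more matches, members included, 7 were higher by that rule, or 12.3%. Of the 6 members with 2 matches 3 were. A window of 300 bases cannot show that a promoter lacks the motif.

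**Figure D4:**
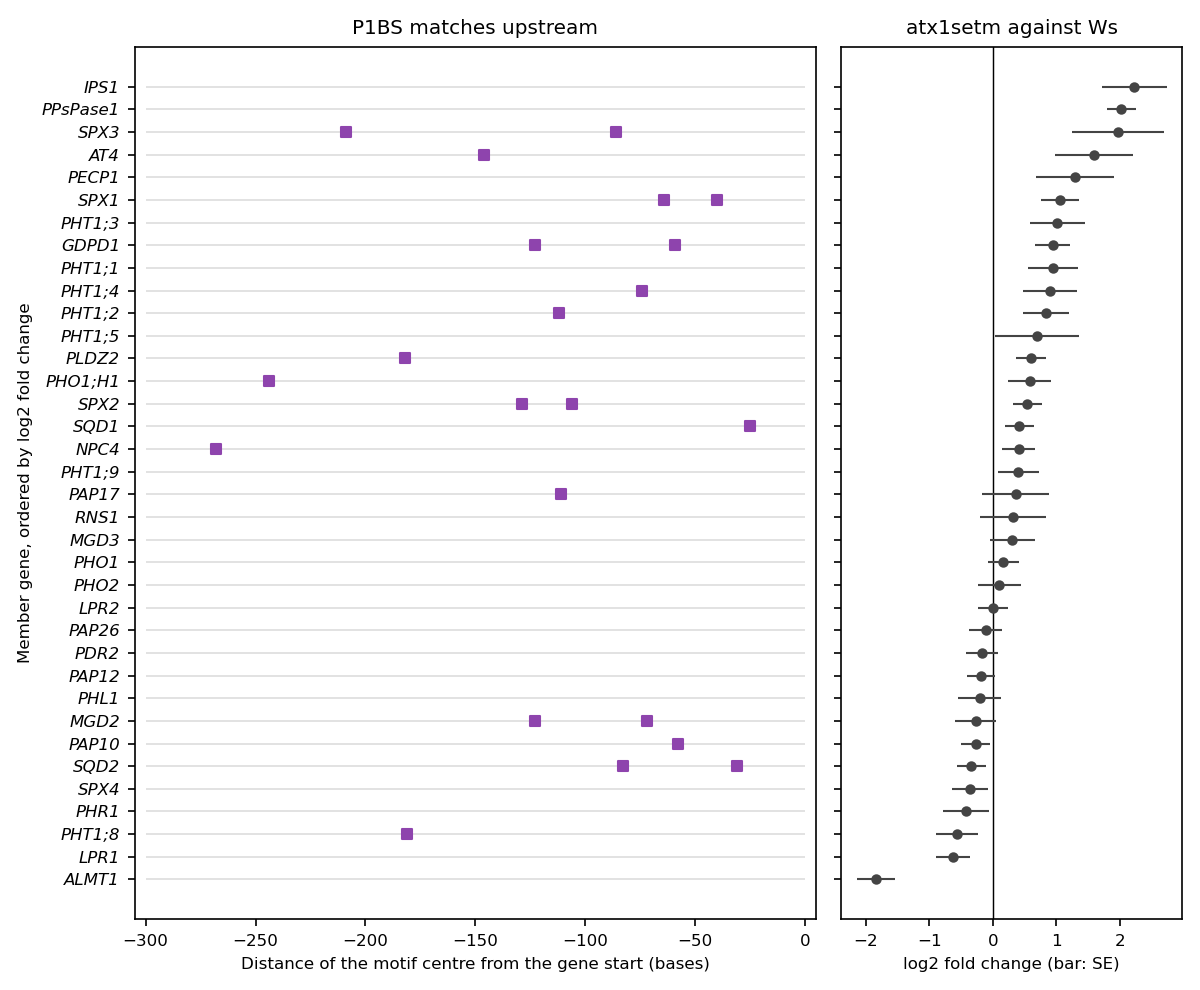
P1BS matches in the 300 bases before each tested member's gene start (left, distance of the motif's centre from the start in bases) and the log2 ratio of the same gene with its SE (right), ordered by that ratio. The 16 genes with a match run from *SPX3* at 1.97 to *PHT1;8* at −0.57. *IPS1* and *PPsPase1* at the top and *ALMT1* and *LPR1* at the bottom have none. The log2 ratio was positive for 12 of the 16 with a match and 11 of the 20 without one, and for 50% of all tested genes with a match.

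Replicates of the same number shared much of their variation. Replicate 2 was above replicate 1 in both genotypes for 18 members and below it in both for 8, so that 26 of 36 members moved in one direction, and 80.5% of all tested genes did the same. The members highest in replicate 2 of both genotypes included *PHT1;1* to *PHT1;5*, *SPX3*, *IPS1*, *AT4*, *PAP17* and *RNS1*, and the green shoot markers had the same order of libraries within each genotype. What the replicates shared was not tested.

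Other genes of the same families, listed by family, also with earlier results known, are given beside the members as a description. Of 103 such genes 79 were tested, with a median log2 ratio of −0.12. The quasi-likelihood test put 5 of them higher and 6 lower before adjustment, where 4.93% and 4.78% of all genes were. The exact test, after adjustment over all genes, put 2 higher and 3 lower, where 1.71% and 2.24% of all genes were, so the counts lay near the background. *PAP20*, a purple acid phosphatase gene, had 5 exon reads in each Ws library and 74 in each *atx1setm* library, a log2 ratio of 3.91 ± 0.45 (adjusted p = 3.233e-08 by the exact test of edgeR). The study had already reported *PAP20* as higher, from the same libraries. *PAP24* of the same family fell by 1.65 on the log2 scale (adjusted p = 0.0346 by the exact test of edgeR and 0.0664 by DESeq2).

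Among the other malate channel and STOP1 genes, *ALMT10* rose by a log2 ratio of 1.46 ± 0.30 (adjusted p = 0.0117 by the exact test of edgeR) and *ALMT3* fell by 1.86 ± 0.36 (adjusted p = 0.00283). *ALMT3* thus moved with *ALMT1* and *ALMT10* against it. *G3Pp2*, a glycerol-3-phosphate permease gene, fell by 1.77 ± 0.43 (adjusted p = 0.0115 by the exact test of edgeR) and had 24.5 and 29.7 CPM in Ws against 5.04 and 10.8 CPM in *atx1setm*. By family, the median log2 ratios were −0.11 for 12 other phosphate transporters, −0.25 for 6 *PHO1* homologs, −0.56 for 5 glycerol-3-phosphate permeases, −0.18 for 12 regulators, −0.08 for 16 purple acid phosphatases, −0.14 for 15 lipid enzymes, 0.18 for 11 malate channel and STOP1 genes and 0.53 for 2 ribonucleases. The phosphate transporters and *PHO1* homologs outside the members had 0 genes past these rules.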

How the data were processed

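RNA from whole roots of the WT (Ws) and *atx1setm* was sequenced in 2 libraries per genotype, and the labels call them biological replicates. p-values measure only the spread between these libraries. After trimming, the authors used CLC Genomics Workbench for mapping to TAIR10 and for counts per gene. Strandedness is not given in the sources used here. Reads from a gene and an overlapping antisense gene therefore cannot be told apart. The deposited exon, intron and gene reads are raw counts of uniquely mapped reads, and the authors' RPKM is scaled by exon length and mapped reads. The deposited p-value, its correction and the fold change are the authors' own comparison and were not used. Of the other per-sample columns 47 were not used. Samples were matched to columns by the genotype and replicate in their names. The name table held 28009 of the 28642 loci.

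Exon counts were filtered by filterByExpr (20714 genes), scaled by TMM (0.855 to 1.09) and compared in edgeR 4.0.16 (R 4.3.3) by its quasi-likelihood test, legacy fit, and by its exact test, with Benjamini-Hochberg adjustment over all genes. The common dispersion was 0.0920. The scripts were tested on simulated data. Errors on levels are the SD of 2 libraries. SE is the absolute log2 ratio divided by the square root of the quasi-likelihood F statistic, and is not returned by the fit itself. The members and lists were chosen with earlier results of these data known, so lists are described by counts and medians and not tested. Every member is named, library values are printed for those past an unadjusted quasi-likelihood p of 0.05, an adjusted exact-test p of 0.05 or a log2 change of 1, and other family genes only past the exact test, at most 3 per list. Others printed were chosen after their values were seen. Of 105 other family genes, 2 were left out because the name table gives another symbol. Of 30 marker genes, those of xylem, phloem and endodermis (3 each) had medians of 0.01, 0.19 and −0.25 with 0 past the tests, those of root cap 0.27, root tip meristem −0.70, green shoot 0.02 and root hair −1.60.

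P1BS windows are the 300 bases before the gene start of the table, read from RefSeq TAIR10.1 and not from Ws. Only 5 members have the same start and end in that annotation, so a window can cover transcribed bases. miR399 sites were searched in member exons with up to 3 mismatches, with no bulge or with a bulge of 3 bases. Alternatives were a replicate block, DESeq2 1.42.0, the exact test, the test without the legacy fit, RLE factors, library totals, no filter, at least 10 reads in every library, gene reads, unique exon reads (identical to the exon reads), limma 3.58.1 on log2(RPKM + 0.5) and log2(RPKM + 0.1), and leaving out each library. The same settings for the exact test were added after seeing the data.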

Additional observations from a re-analysis of the deposited data

How the results depend on the processing

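With 2 libraries per genotype, a gene needed either a large or a very even difference to pass, and leaving out a library leaves 1 whose spread is taken from the other genotype. Of the members, 23 passed an adjusted p of 0.05 in none of the 16 alternatives and 7 changed sign in at least 1, among them *PHO2* and *LPR2*. Settings of normalization, filter, count and scale called 0 members at that level. The cause of the changes below was not tested. For an unadjusted p under 0.05, the share of all genes is given for the main fit only, 4.93% higher and 4.78% lower. In the other settings, a change in the unadjusted count of members therefore cannot be told from a change over all genes.

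Members higher at an unadjusted p under 0.05 numbered 6, and 14 with the replicate block, 11 with DESeq2 and 3 to 13 without 1 library. Members lower numbered 1, and 3 with the block and 1 to 3 without 1 library. At an adjusted p, 0 members were higher, and 11 with the block, 2 with DESeq2, 2 with the exact test and 0 to 10 without 1 library. Lower were 0, and 1 with the block, 1 with DESeq2, 1 with the exact test and 0 to 2 without 1 library. Over all genes 0 were higher, and 1838 with the block, 303 with DESeq2, 354 with the exact test, 26 without a filter and 56 to 2153 without 1 library. Lower were 0, and 2050, 363, 463, 55 and 90 to 2413 in the same order. The block rests on replicate numbers, which no label ties to a shared batch. The replicate differences of the genotypes correlated at 0.746 across genes, with 2 pairs only, and calls gained with the block are not evidence of pairing. With the block *PHT1;1* to *PHT1;4*, *SPX1*, *SPX3*, *IPS1*, *AT4*, *PPsPase1*, *PECP1* and *GDPD1* passed higher and *ALMT1* lower, where 8.87% and 9.90% of all genes passed. By the exact test, members called higher numbered 2 and 0 to 10 without 1 library, and lower 1 and 0 to 1. The count of 10 came without *atx1setm* replicate 1, where 10.3% of all genes were called higher, against 0.296% to 1.90% without any other library.

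The median log2 fold change of the SPX genes, 0.80, was 0.73 on library totals, 0.67 and 0.68 with limma at 0.5 and 0.1 added to RPKM, and 0.60 to 0.84 without 1 library. Without 1 library the medians ranged from 0.37 to 1.21 for PHT1 transporters, −0.80 to 0.0692 for *PHR1* and *PHL1*, 0.98 to 2.47 for the mimic RNAs, 0.0859 to 0.42 for *PHO2* and *PHO1*, 0.26 to 1.89 for *PPsPase1*, *PECP1* and *RNS1*, 0.32 to 0.53 for lipid genes, −0.26 to −0.07 for purple acid phosphatases and −0.49 to −0.30 for root tip genes.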

Other observations

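The remaining family genes at an unadjusted p under 0.05 by the quasi-likelihood test of edgeR, named after their values were seen, had adjusted p-values from 0.315 to 0.467 by that test. *NLA*, a ubiquitin ligase gene whose product acts on PHT1 transporters, had 15.7 and 13.5 CPM in Ws and 26.9 and 21.5 CPM in *atx1setm*, a log2 ratio of 0.73 ± 0.25 (SE). The ribonuclease gene *RNS3* had 31.9 and 35.0 CPM in Ws and 46.7 and 83.5 CPM in *atx1setm*, and *NPC6*, a relative of *NPC4*, had a log2 ratio of 0.84 ± 0.28. Lower in both *atx1setm* libraries were *G3Pp5* at −0.84 ± 0.23, *GDPD5*, a relative of *GDPD1*, at −0.67 ± 0.23, and *MATE*, which encodes a citrate exporter regulated alongside *ALMT1*, at −1.04 ± 0.31. *MATE* measured 43.9 and 45.9 CPM in Ws and 26.9 and 16.6 CPM in *atx1setm*, with no overlap between the genotypes.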
